A study of Mus musculus with 2 samples.

Results

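The CTLA-4, LAG-3, TIM-3 and TIGIT checkpoint axes were followed through the CD45-sorted cells of MOC2 tumours. Their 10 genes were selected by symbol, and all 10 are among the 32285 genes counted. The receptors are Ctla4, Cd28, Lag3, Havcr2 (the gene of TIM-3) and Tigit, and the ligands are Cd80, Cd86, Lgals9, Pvr and Nectin2. MOC2, a mouse oral carcinoma line, was injected in 40% Matrigel under the flank skin of C57BL/6 females aged 6 to 7 weeks. Once tumours had reached 80 to 100 mm3, 10 mice per arm were given Momordicine-I, a triterpenoid of bitter melon, at 30 mg/kg intraperitoneally each day, or its vehicle alone. The vehicle, which the treated mice received too, was 5% DMSO made up to volume with Captisol, a cyclodextrin carrier, at 30% w:v. At the endpoint the tumours of 3 mice per arm were pooled and sorted with a CD45 antibody and propidium iodide, so each arm is 1 library of single-cell RNA.

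Checkpoint receptors are surface proteins of lymphocytes and some myeloid cells that dampen or license activation when they meet their ligands. CTLA-4 and the costimulatory receptor CD28 compete for the same ligands, CD80 and CD86, on antigen-presenting cells, and CTLA-4 is a constitutive product of regulatory T cells. LAG-3 binds MHC class II, TIM-3 binds galectin-9 (Lgals9) among other ligands, and TIGIT competes with the activating receptor CD226 for CD155 (Pvr), while nectin-2 is a further member of that ligand family.

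Barcodes with at least 200 genes and at most 10% mitochondrial UMIs (unique molecular identifiers, 1 per captured transcript) left 4370 Momordicine-I and 3364 vehicle cells, with medians of 5002 and 5760 UMIs per cell. The libraries shared 7 of these barcodes. Cells were sorted into 18 gates by lineage markers, none of them among the 10 genes, and 946 Momordicine-I cells (21.6%) and 700 vehicle cells (20.8%) matched no gate. Levels are CPM, a gene's UMIs summed over a gate and scaled by all UMIs of that gate, and every interval is a 95% interval for counting error only. UMIs of a cell are taken as independent, so variation between cells and between mice is not in the intervals. With 1 library per group no test was possible and no p-value is given, and the values compare these libraries. A ratio of Momordicine-I to vehicle is given in the 12 gates with at least 20 cells in each library, for genes with at least 20 UMIs over both, and is called higher or lower at 1.5-fold. By that rule 65 gene and gate pairs were measured. Of these, 10 were called higher in the Momordicine-I library, beside 12.7% of all gene and gate pairs in the same gates. Another 17 were called lower, beside 13.3% of all pairs. The lower calls include Ctla4 in monocytes and neutrophils, which lay near its level in B cells.

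Ctla4 was highest in Foxp3+ T cells, the regulatory T cell gate, and did not pass 1.5-fold there. It stood at 920 CPM (842 to 1004) in 51 Momordicine-I cells and 882 CPM (829 to 938) in 94 vehicle cells, a ratio of 1.04 (0.936 to 1.16). Of these cells 92.2% in the Momordicine-I library and 90.4% in the vehicle library had a Ctla4 UMI. With each cell thinned to 2000 UMIs the shares were 66.0% and 65.2%. B cells, which should lack the gene, had a Ctla4 UMI in 4.60% of Momordicine-I and 5.96% of vehicle cells, at medians of 4783 and 6030 UMIs, against 8065 and 8851.5 in the Foxp3+ gate. Foxp3 itself, the transcription factor that defines the gate, was at 487 CPM in Momordicine-I and 461 CPM in vehicle cells.

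Outside the Foxp3+ gate Ctla4 went in opposite directions. In Foxp3-negative Cd4+ T cells it was lower, at 270 CPM in 28 Momordicine-I cells against 632 CPM in 39 vehicle cells (ratio 0.427, 0.308 to 0.581). A single vehicle cell held 36.2% of those vehicle UMIs and a single Momordicine-I cell 29.4% of the others. The log2 ratio of -1.23 stayed at -1.24 without the highest cell of each library, and was -0.35 after thinning. In naive-like T cells, with Lef1 and Tcf7 among their markers, Ctla4 was higher, at 146 CPM in 68 Momordicine-I cells against 77.5 CPM in 157 vehicle cells (ratio 1.89, 1.41 to 2.53, and 1.63 to 3.12 over the processing alternatives). The share of naive-like cells with a Ctla4 UMI did not go with the level, at 22.1% in the Momordicine-I and 28.0% in the vehicle library, and 26.7% of the Momordicine-I UMIs lay in 1 cell. The content of this gate differed too. Its summed NK markers made up 0.0220% of Momordicine-I and 0.0117% of vehicle UMIs, from 26.5% and 10.8% of cells. Lef1 was at 332 and 460 CPM and Tcf7 at 439 and 660 CPM. The granzyme gene Gzma went the other way from the NK markers, at 35.8 and 265 CPM. The part of these differences in the result was not tested. NK cells had 197 CPM in the Momordicine-I library and 239 CPM in the vehicle library, and gamma-delta T cells 150 and 200 CPM in the same order of libraries. Neither of these gates passed 1.5-fold.

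The Ctla4 levels of monocytes (5.72 CPM in Momordicine-I, 15.4 CPM in vehicle cells) and neutrophils (5.79 and 10.4 CPM) lay near that of B cells (9.31 and 9.35 CPM). In each library the intervals of these gates overlapped that of B cells. Vehicle monocytes had a Ctla4 UMI in 14.0% of cells, against 5.96% of vehicle B cells. Both ratios were called lower, at levels that counting error does not set apart from B cells. Over all cells Ctla4 was at 46.9 CPM in the Momordicine-I library and 81.0 CPM in the vehicle library. Over all T cells the levels were 316 CPM (342 cells) and 419 CPM (373 cells), a ratio of 0.753 (0.692 to 0.818). Foxp3+ cells were 14.9% of T cells in the Momordicine-I library and 25.2% in the vehicle library, and gamma-delta T cells were 46.2% and 16.9%. For a weighting, the mix of gates was taken as each gate's share of T cell UMIs, not of cells. When the Momordicine-I level of each T cell gate was weighted by the vehicle mix of gates, the ratio was 0.981. With the vehicle levels weighted by the Momordicine-I mix, the ratio to the vehicle level was 0.816. These weightings were chosen after the data were seen.

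**Figure D1:**
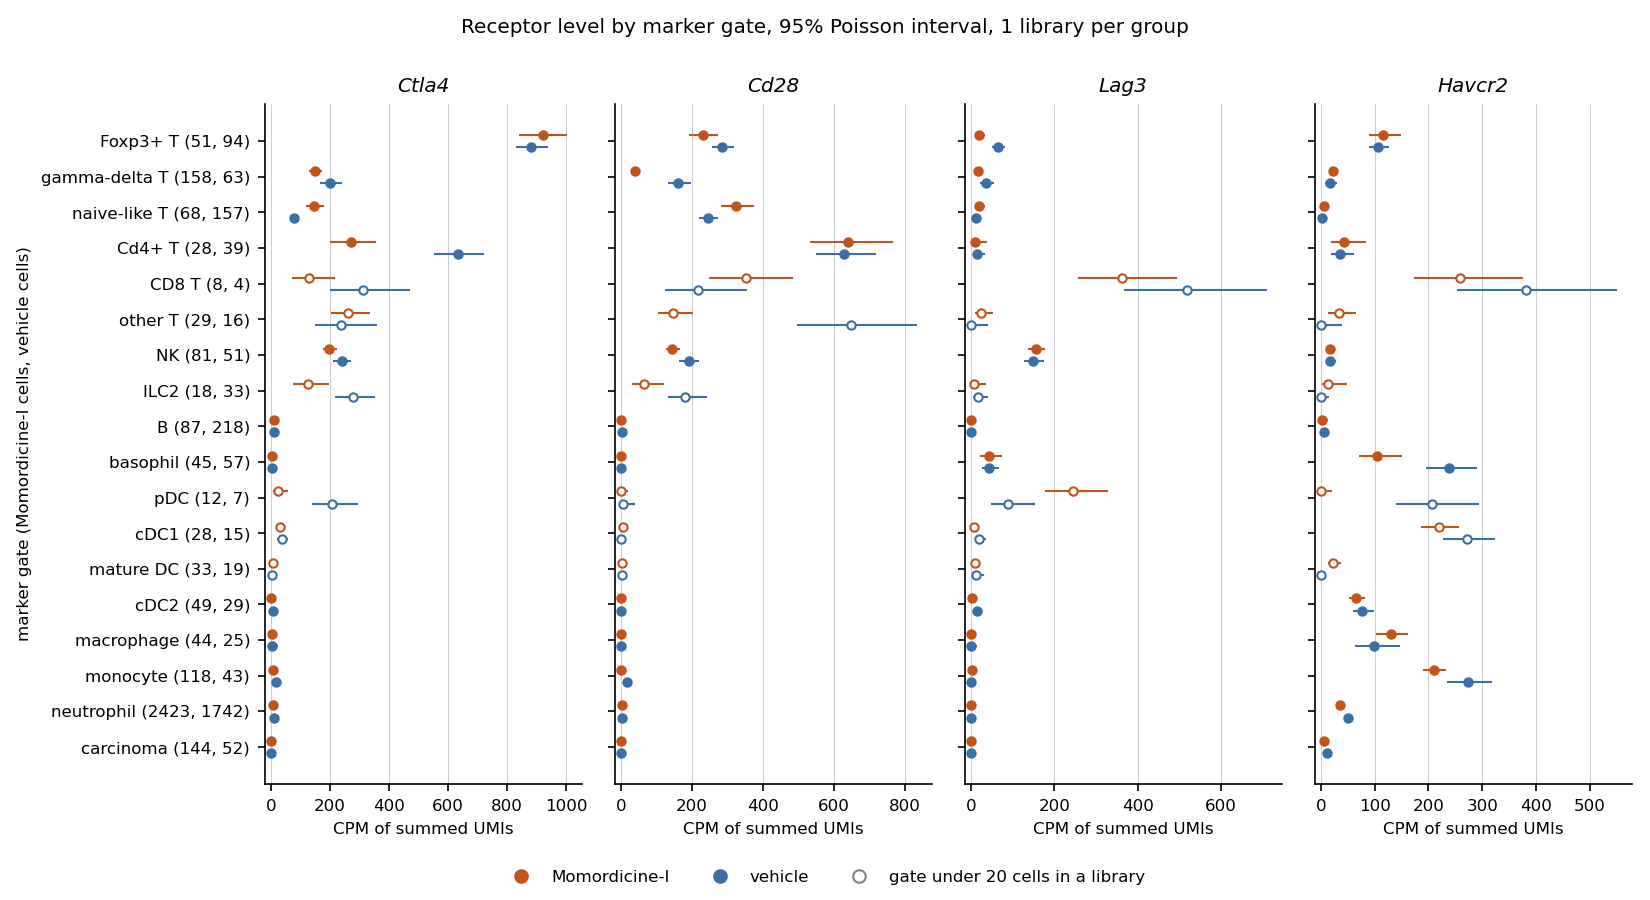
Level of 4 receptor genes in 18 marker gates as CPM of summed UMIs (x axes differ between genes), with 95% Poisson intervals and the number of cells in brackets; orange is Momordicine-I, blue is vehicle, and open circles mark gates under 20 cells in a library. Ctla4 peaks in Foxp3+ T cells at 920 and 882 CPM, Cd28 is at 640 and 630 CPM in Cd4+ T cells, and Havcr2 extends into monocytes, basophils and cDC1.

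Cd28, the costimulatory receptor that competes with CTLA-4, was highest in Cd4+ T cells among the 12 gates with a ratio, at 640 CPM (531 to 765) in Momordicine-I and 630 CPM (549 to 719) in vehicle cells. Naive-like T cells had 325 CPM in the Momordicine-I and 244 CPM in the vehicle library, and Foxp3+ T cells 231 and 286 CPM, so these gates changed places between the libraries. None of the 3 passed 1.5-fold. Of the gates too small for a ratio, T cells in no subset gate had 147 CPM in 29 Momordicine-I and 648 CPM in 16 vehicle cells, and CD8 T cells 352 CPM in 8 and 218 CPM in 4 cells. Outside T cells, NK cells and the ILC2 gate the highest level was 16.9 CPM, in vehicle monocytes, from 11 UMIs in 3 cells. B cells held 0 UMIs in 87 Momordicine-I cells, which allows up to 3 counts, and 4 UMIs in 218 vehicle cells.

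The 1 gate in which Cd28 was called was gamma-delta T cells, where it was lower, at 40.8 CPM (29.9 to 54.4) in 158 Momordicine-I cells against 162 CPM (131 to 197) in 63 vehicle cells. The ratio was 0.252 (0.173 to 0.361), and 0.203 to 0.320 over the alternatives. A Cd28 UMI was found in 13 of the Momordicine-I and 17 of the vehicle cells. Marker genes that the gate did not use also differed. Il17a, the cytokine gene of the IL-17-producing subset, was at 1075 CPM in Momordicine-I and 493 CPM in vehicle cells, and Gzma, a granzyme of cytotoxic cells, at 21.3 and 2960 CPM, from 5.70% and 11.1% of cells. The summed NK markers made up 0.0055% and 0.0304% of UMIs, and the part of these differences in the result was not tested. Cells with an Il17a UMI, 84 in the Momordicine-I and 21 in the vehicle library, held only 2 Cd28 UMIs in each library. Among the 74 Momordicine-I and 42 vehicle cells without one, Cd28 was at 82.9 and 212 CPM, a ratio of 0.392 (0.268 to 0.565). Ctla4 in the same cells without an Il17a UMI was at 126 and 234 CPM (ratio 0.540, 0.392 to 0.740), whereas in cells with one it was at 171 and 99.1 CPM (ratio 1.72, 0.997 to 3.19). That split was made after the data were seen.

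Lag3 encodes a receptor for MHC class II and was carried mainly by NK cells, which held 47.8% of its UMIs in the Momordicine-I library and 34.7% in the vehicle library. Its NK level was 156 CPM (136 to 178) in Momordicine-I and 150 CPM (127 to 176) in vehicle cells, a ratio of 1.04 (0.842 to 1.29). A Lag3 UMI was present in 64.2% of 81 and 68.6% of 51 NK cells, against 0 of 87 B cells, which allows a share of up to 3.45%, and 1 of 218. Thinned, the NK shares were 22.2% and 17.6%.

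In Foxp3+ T cells Lag3 was lower. It had 10 UMIs in 6 of 51 Momordicine-I cells and 76 UMIs in 19 of 94 vehicle cells, or 18.2 CPM against 64.8 CPM. The ratio of 0.280 (0.129 to 0.544) ran from 0.181 to 0.335 over the alternatives, and 1 vehicle cell held 30.3% of the vehicle UMIs. The Il17a level of this gate also differed, at 192 CPM in Momordicine-I and 9.38 CPM in vehicle cells, from 9.80% and 4.26% of cells, and its part in the result was not tested. Gamma-delta T cells had 16.8 CPM in the Momordicine-I library against 36.4 CPM in the vehicle library (ratio 0.463, 0.237 to 0.897), from 19 UMIs in 3 cells and 22 UMIs in 5 cells. None of these UMIs lay in a cell with an Il17a UMI. In the gamma-delta T cells without one Lag3 was at 35.8 and 48.5 CPM. That ratio of 0.738 (0.378 to 1.43) is short of 1.5-fold and its interval spans 1. The naive-like gate went the other way at 19.5 against 12.7 CPM, from 12 UMIs in 3 cells and 17 UMIs in 4 cells, with an interval that spans 1 (0.672 to 3.42) and a log2 ratio of -0.16 with a limit of 5% mitochondrial UMIs. The NK markers of that gate differed between the libraries, as given for Ctla4, and their part was not tested. CD8 T cells had the highest Lag3 level of any gate, 361 CPM in the Momordicine-I and 517 CPM in the vehicle library, but the gate held 8 and 4 cells. Plasmacytoid dendritic cells (pDC), known to carry LAG-3 in mice, had a Lag3 UMI in 10 of 12 Momordicine-I cells and 4 of 7 vehicle cells, at 244 and 89.5 CPM.

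Havcr2 encodes TIM-3, which is known on exhausted T cells and on dendritic and other myeloid cells. Neutrophils held 23.0% of its UMIs in the Momordicine-I and 28.9% in the vehicle library, and monocytes 16.8% and 8.99%. Monocytes had 211 CPM (190 to 233) in the Momordicine-I library and 274 CPM (235 to 317) in the vehicle library, a ratio of 0.769 (0.641 to 0.925). Cross-presenting dendritic cells (cDC1) had 219 CPM in 28 and 272 CPM in 15 cells, and macrophages 130 and 98.8 CPM in the same order. CD8 T cells had 259 CPM in 8 Momordicine-I and 381 CPM in 4 vehicle cells, from 28 UMIs in each library. Foxp3+ T cells had 116 and 107 CPM (ratio 1.09, 0.794 to 1.49), with a Havcr2 UMI in 43.1% of Momordicine-I and 48.9% of vehicle cells. B cells, which should lack it, had one in 1.15% and 3.21%.

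Havcr2 was called in basophils, granulocytes marked by Mcpt8, and in the carcinoma gate. In basophils it was lower, at 105 CPM (70.0 to 150) in 45 Momordicine-I cells against 239 CPM (195 to 290) in 57 vehicle cells. The ratio was 0.438 (0.280 to 0.666) and 0.395 to 0.618 over the alternatives. A UMI was found in 16 Momordicine-I and 33 vehicle basophils. Cd74, the invariant chain of antigen-presenting cells, was at 2074 CPM in Momordicine-I and 59.7 CPM in vehicle cells of this gate. The share of cells with a Cd74 UMI did not go with that level, at 37.8% and 42.1%. Itgax, a dendritic cell integrin, was at 97.4 CPM in 4.44% of Momordicine-I cells and 2.30 CPM in 1.75% of vehicle cells. The basophil markers themselves made up 0.743% and 0.851% of UMIs, and the part of the Cd74 difference in the result was not tested. In neutrophils Havcr2 was at 36.1 CPM against 49.5 CPM (ratio 0.728, 0.645 to 0.822). In the carcinoma gate Havcr2 was called lower on 20 and 13 UMIs (ratio 0.543, 0.257 to 1.19).

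Tigit was barely detected, with 45 UMIs in 39 of 4370 Momordicine-I cells and 45 UMIs in 35 of 3364 vehicle cells. TIGIT is known on regulatory T cells and NK cells, and those gates had the highest levels among the 12 with a ratio: Foxp3+ T cells had 7.26 CPM (4 UMIs) in the Momordicine-I and 8.52 CPM (10 UMIs) in the vehicle library, and NK cells 7.76 CPM (11 UMIs) and 6.03 CPM (6 UMIs). The carcinoma gate held 7 UMIs in 6 Momordicine-I cells and 6 UMIs in 3 vehicle cells, and B cells held 0 and 2 UMIs. No gate reached 20 UMIs, so the order of the gates rests on few counts. All T cells together had 11 Momordicine-I and 13 vehicle UMIs, a ratio of 1.08 with an interval of 0.440 to 2.62. A difference within that interval was not detectable at this depth.

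Cd80, a ligand shared by CD28 and CTLA-4, was held mostly by neutrophils in this tumour. They had 62.6% of all Cd80 UMIs in the Momordicine-I library and 64.2% in the vehicle library. A Cd80 UMI was found in 50.1% of 2423 Momordicine-I and 57.8% of 1742 vehicle neutrophils, and in 29.4% and 36.4% after thinning. B cells had one in 2.30% and 2.75%. The neutrophil level was 219 CPM (211 to 227) in the Momordicine-I and 261 CPM (252 to 270) in the vehicle library. Their ratio of 0.838 (0.797 to 0.882) is short of 1.5-fold and was 0.740 to 0.845 over the alternatives. The median log2 ratio of all genes measured in neutrophils was 0.18, so Cd80 lay further below the typical gene than below 1.

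With neutrophils split by Siglecf, a marker of tumour-associated neutrophils, Cd80 was at 256 CPM in Momordicine-I and 316 CPM in vehicle cells with a Siglecf UMI. It was at 198 and 211 CPM in those with at least 3 UMIs of Ly6g, Mmp8 and Retnlg, genes of mature neutrophils. The remaining neutrophils had 235 and 327 CPM, a ratio of 0.719 (0.655 to 0.789), whereas the Ly6g, Mmp8 and Retnlg class had a ratio of 0.939 (0.872 to 1.01). Havcr2 too had its highest ratio in that class, at 0.853, beside 0.661 in the Siglecf class and 0.663 in the remaining cells, and so did Cd86, at 1.05 beside 0.660 and 0.735. Lgals9 and Pvr had their lowest ratio there. Lgals9 was at 0.789, beside 0.821 in the Siglecf class and 0.860 in the remaining cells, and Pvr at 0.678, beside 0.799 and 0.856. For Havcr2, Cd86, Lgals9 and Pvr the ratio intervals of the classes overlapped, so counting error does not set the classes apart for these genes. This split was made after the data were seen.

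**Figure D2:**
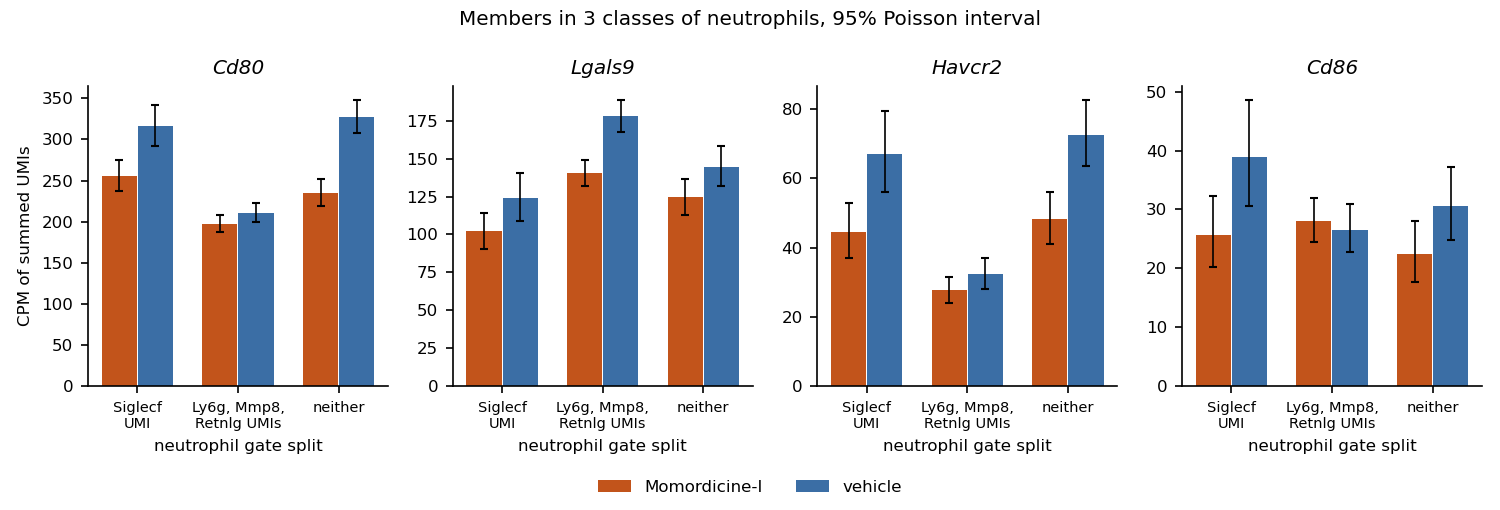
Level of 4 genes in 3 classes of the neutrophil gate as CPM of summed UMIs, with 95% Poisson intervals; orange bars are Momordicine-I and blue bars vehicle. Cd80 stands at 235 against 327 CPM in the class with neither marker set, and at 198 against 211 CPM in the Ly6g, Mmp8 and Retnlg class.

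Among antigen-presenting cells Cd80 was highest in mature dendritic cells, at 226 CPM (191 to 266) in 33 Momordicine-I and 176 CPM (136 to 223) in 19 vehicle cells. The cDC2 followed at 105 CPM in Momordicine-I and 83.1 CPM in vehicle cells (ratio 1.26, 0.937 to 1.72). Monocytes and macrophages differed in direction. Monocytes were lower at 54.4 CPM in 118 Momordicine-I cells against 87.7 CPM in 43 vehicle cells (ratio 0.620, 0.442 to 0.877). Macrophages were called higher at 91.7 CPM in 44 against 53.5 CPM in 25 cells, with an interval that spans 1 (ratio 1.71, 0.923 to 3.42). Gamma-delta T cells were called higher on 27 UMIs against 5 UMIs (23.9 against 8.26 CPM, ratio 2.90), and 29.6% of the Momordicine-I UMIs lay in 1 cell. All 3 of these calls turned in direction under 1 alternative each, given in the part on processing.

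Cd86, the other ligand shared by CD28 and CTLA-4, was a gene of antigen-presenting cells. Mature dendritic cells had 396 CPM (349 to 448) in the Momordicine-I and 261 CPM (212 to 317) in the vehicle library, from 33 and 19 cells. The cDC2 had 232 and 195 CPM (ratio 1.19, 0.982 to 1.46), and every one of 49 Momordicine-I cDC2 had a UMI, against 23 of 29 in the vehicle library. B cells were at 86.1 and 84.2 CPM (ratio 1.02, 0.691 to 1.48). NK cells, which should lack the gene, were at 6.35 and 1.01 CPM.

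Mononuclear phagocytes had more Cd86 in the Momordicine-I library. Macrophages had 188 CPM (155 to 226) against 103 CPM (66.6 to 152), a ratio of 1.83 (1.18 to 2.95), and monocytes 151 CPM (133 to 170) against 103 CPM (79.9 to 131), a ratio of 1.46 (1.11 to 1.94). The macrophage gate differed in depth and content as well. Its median was 12438.5 UMIs per cell in the Momordicine-I and 5221 in the vehicle library, and its macrophage markers made up 0.440% and 0.874% of UMIs. The part of these differences in the result was not tested. With cells classed by their most frequent marker UMIs the macrophage log2 ratio of 0.87 turned to -0.46. In Foxp3+ T cells Cd86 was called higher on 28 against 30 UMIs (50.8 against 25.6 CPM, ratio 1.99), but 46.4% of the Momordicine-I UMIs lay in 1 cell. With the highest-scoring doublets removed that log2 ratio of 0.99 turned to -0.84. In basophils Cd86 was called lower on 8 against 21 UMIs, with an interval that spans 1 (ratio 0.598, 0.229 to 1.41).

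**Figure D3:**
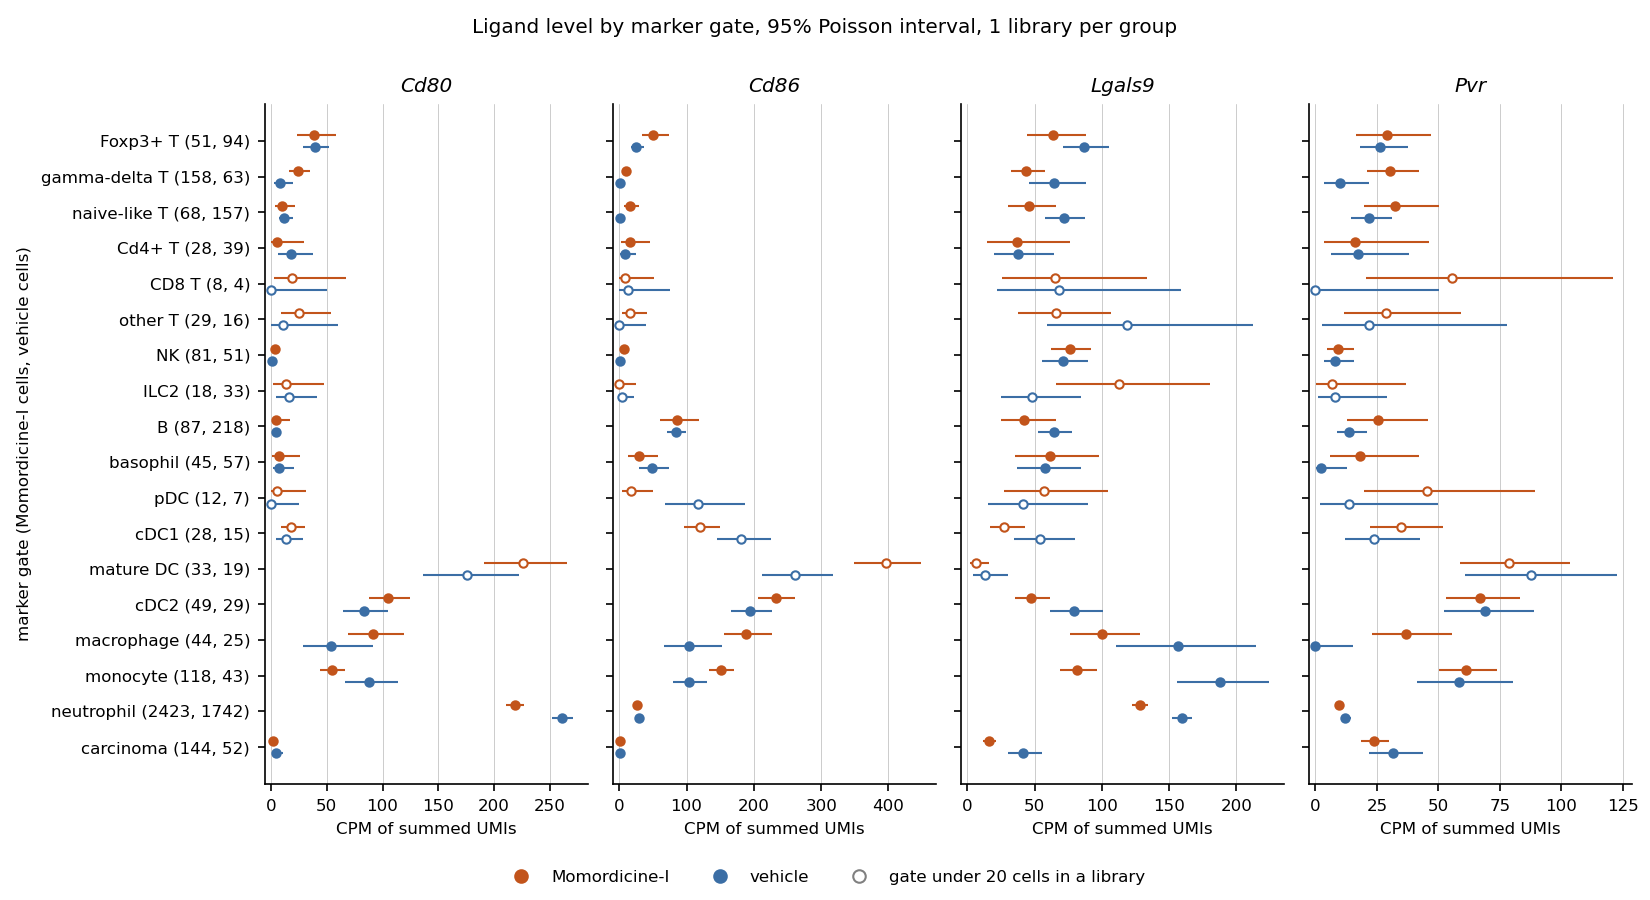
Level of 4 ligand genes in 18 marker gates as CPM of summed UMIs (x axes differ between genes), with 95% Poisson intervals; orange is Momordicine-I, blue is vehicle, and open circles mark gates under 20 cells in a library. Cd80 is at 219 and 261 CPM in neutrophils, Cd86 peaks in mature dendritic cells at 396 and 261 CPM, and Lgals9 in monocytes is at 81.9 against 188 CPM.

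Lgals9, the gene of galectin-9 and known as interferon-inducible, was the member called in the most gates, and the only one measured in all 12. Its ratio was below 1 in 10 of them. It was called lower in 6, beside 13.3% of all gene and gate pairs, and higher in 0, beside 12.7%. Ctla4, measured in 7 gates, was called lower in 3 and higher in 1. The median log2 ratio over the gates was -0.59. Monocytes had 81.9 CPM (69.0 to 96.4) in the Momordicine-I library against 188 CPM (156 to 224) in the vehicle library. Their ratio of 0.436 (0.340 to 0.560) was 0.424 to 0.610 over the alternatives. A Lgals9 UMI was found in 53.4% of Momordicine-I and 74.4% of vehicle monocytes, and in 15.5% and 31.6% after thinning.

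Lgals9 was also lower in macrophages, at 100.0 CPM against 156 CPM (ratio 0.639, 0.419 to 0.986), and in cDC2, at 47.2 against 79.5 CPM (ratio 0.593, 0.409 to 0.857). Naive-like T cells had 45.5 CPM in the Momordicine-I and 71.5 CPM in the vehicle library (ratio 0.637, 0.402 to 0.979). B cells had 41.9 and 64.2 CPM (ratio 0.652, 0.372 to 1.08). The call in B cells, cDC2 and macrophages fell short of 1.5-fold under 4, 3 and 3 of 11 alternatives, with no change of direction. Carcinoma cells had 16.0 against 41.6 CPM (ratio 0.384), from 18 and 6 cells with a UMI. That direction turned when each cell had equal weight. Neutrophils, which held 50.4% of Lgals9 UMIs in the Momordicine-I and 48.7% in the vehicle library, were at 128 CPM (123 to 135) against 159 CPM (152 to 167), a ratio of 0.806 (0.755 to 0.861). NK cells and basophils were the exceptions, each with a ratio of 1.07 (0.784 to 1.46 in NK cells, 0.541 to 2.06 in basophils). The lowest Lgals9 level was in mature dendritic cells, at 6.19 CPM in Momordicine-I and 12.9 CPM in vehicle cells.

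The 250 bases before the RefSeq start of Lgals9 are shown because its level differed in many cell types, beside those of Ctla4, whose level in Foxp3+ T cells did not pass 1.5-fold. Both were read on the strand of the gene from RefSeq promoters of GRCm38.p6, at chr11:78984925-78985174 (minus strand) for Lgals9 and chr1:60908775-60909024 (plus strand) for Ctla4. Of the 10 genes, 6 had a promoter in that set. Capitals mark a pair of interferon response half-sites (GAAA and GAAA with any 2 bases between, here on the opposite strand) in Lgals9 and an NFAT core (GGAAA, on the opposite strand) in Ctla4.
Lgals9: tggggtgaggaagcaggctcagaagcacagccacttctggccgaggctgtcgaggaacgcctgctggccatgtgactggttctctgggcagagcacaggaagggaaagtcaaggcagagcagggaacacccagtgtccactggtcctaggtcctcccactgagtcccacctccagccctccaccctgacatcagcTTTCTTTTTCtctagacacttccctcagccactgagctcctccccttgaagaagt
Ctla4: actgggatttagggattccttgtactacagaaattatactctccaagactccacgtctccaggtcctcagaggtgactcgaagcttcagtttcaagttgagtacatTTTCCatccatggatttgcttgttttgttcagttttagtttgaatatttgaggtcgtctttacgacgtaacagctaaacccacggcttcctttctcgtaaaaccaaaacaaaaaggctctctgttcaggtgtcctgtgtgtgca
The Lgals9 match begins 55 bases before the start. Such a pair occurs on either strand in 978 of 32851 promoters of that length (2.98%), and in none of the other 5 promoters of these genes. The GGAAA core of Ctla4 begins 144 bases before its start, and 55.6% of promoters hold such a core. Lgals9 holds one as well, beginning 148 bases before its start and not marked by capitals. A match is a description of these letters and not evidence of a factor bound there.

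Pvr encodes CD155, the ligand for which TIGIT and CD226 compete. It was highest in mature dendritic cells, at 78.9 CPM in Momordicine-I and 87.8 CPM in vehicle cells, and did not pass 1.5-fold in cDC2 (67.0 and 68.8 CPM, ratio 0.973, 0.686 to 1.39) and monocytes (61.3 and 58.5 CPM, ratio 1.05, 0.717 to 1.56). Macrophages had 22 UMIs in 11 of 44 Momordicine-I cells and 0 UMIs in 25 vehicle cells. Against a floor of 3 counts in the vehicle gate the level was 2.97-fold higher, a value that leaves out the counting error of the 22 UMIs. The vehicle gate had fewer UMIs in all, 242839 against 600042 in the Momordicine-I library. The log2 ratio of that gate, 1.57 against the floor, was 0.59 with a limit of 5% mitochondrial UMIs and 0.18 after thinning, which is short of 1.5-fold. Gamma-delta T cells were called higher on 34 against 6 UMIs (30.1 against 9.92 CPM, ratio 3.04, 1.26 to 8.86), a direction that turned after thinning. B cells (25.6 against 13.7 CPM, ratio 1.87) and naive-like T cells (32.5 against 21.6 CPM, ratio 1.51) were called higher too, each with an interval that spans 1 (0.817 to 4.02 and 0.808 to 2.76). The strand setting of the counting is not given in the sources used here, and 2 annotated genes overlap Pvr on the other strand.

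Nectin2, a further ligand of this family, was a carcinoma and dendritic cell transcript, with 60 UMIs in 144 Momordicine-I and 38 UMIs in 52 vehicle carcinoma cells. Their levels were 19.6 against 35.1 CPM, a ratio of 0.557 (0.365 to 0.860). A single vehicle cell held 60.5% of those vehicle UMIs, and without the highest cell of each library the log2 ratio was 0.06. The rule of that gate asked for epithelial markers and no UMI of Ptprc, the CD45 gene, although the cells came through a CD45 sort. Mature dendritic cells had 13 UMIs in the Momordicine-I and 9 UMIs in the vehicle library.

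By gate, macrophages had 3 of 5 genes measured higher (Cd80, Cd86 and Pvr) beside 17.2% of all genes, with Lgals9 lower beside 15.7%. There Cd80 and Cd86 turned in direction with cells classed by most marker UMIs, and Pvr was short of 1.5-fold after thinning. Monocytes had 3 of 6 lower (Ctla4, Cd80 and Lgals9) beside 11.3% of all genes, with Ctla4 near its level in B cells. Cd80 in monocytes also turned in direction with cells classed by most marker UMIs. Carcinoma cells had 3 of 4 lower beside 22.1%, with a median log2 ratio of -0.14 over all genes. Of these, Lgals9 and Nectin2 turned in direction under an alternative, and the interval of Havcr2 spans 1. In naive-like T cells 3 of 6 were higher beside 10.9% and 1 was lower beside 16.7%. Of the higher, Lag3 turned in direction under an alternative, and the interval of Pvr spans 1. In gamma-delta T cells 2 of 7 were higher beside 16.6% and 2 lower beside 12.0%. The higher calls, Cd80 and Pvr, each turned in direction under an alternative. Foxp3+ T cells had 1 of 8 higher beside 8.61% and 1 lower beside 12.9%, which is near the background. The higher was Cd86, a direction that turned after thinning and with doublets removed. Basophils had 2 of 4 lower beside 16.9% and 0 higher beside 13.9%. B cells had 1 of 3 higher beside 13.2% and 1 lower beside 17.6%. Cd4+ T cells had 1 of 4 lower beside 17.8%, and cDC2 1 of 5 lower beside 10.9%. Neutrophils had 1 of 7 lower beside 3.72%, which was Ctla4, near its level in B cells. NK cells had 0 of 6 called, beside 9.41% of all genes higher and 9.65% lower. All T cells together had 1 of 9 higher beside 7.85%, which was Cd86 (20.1 against 10.2 CPM, ratio 1.97, 1.28 to 3.07, a direction that turned after thinning), and 0 lower beside 9.1%. Conventional dendritic cells, the 3 dendritic cell gates other than pDC together, had 0 of 8 higher beside 8.68% and 2 lower beside 9.12%. These were Lgals9 (31.4 against 57.3 CPM, ratio 0.549, 0.403 to 0.745, a direction that turned after thinning) and Lag3 (5.90 against 15.9 CPM, ratio 0.370, 0.183 to 0.720, from 15 and 27 UMIs).

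**Figure D4:**
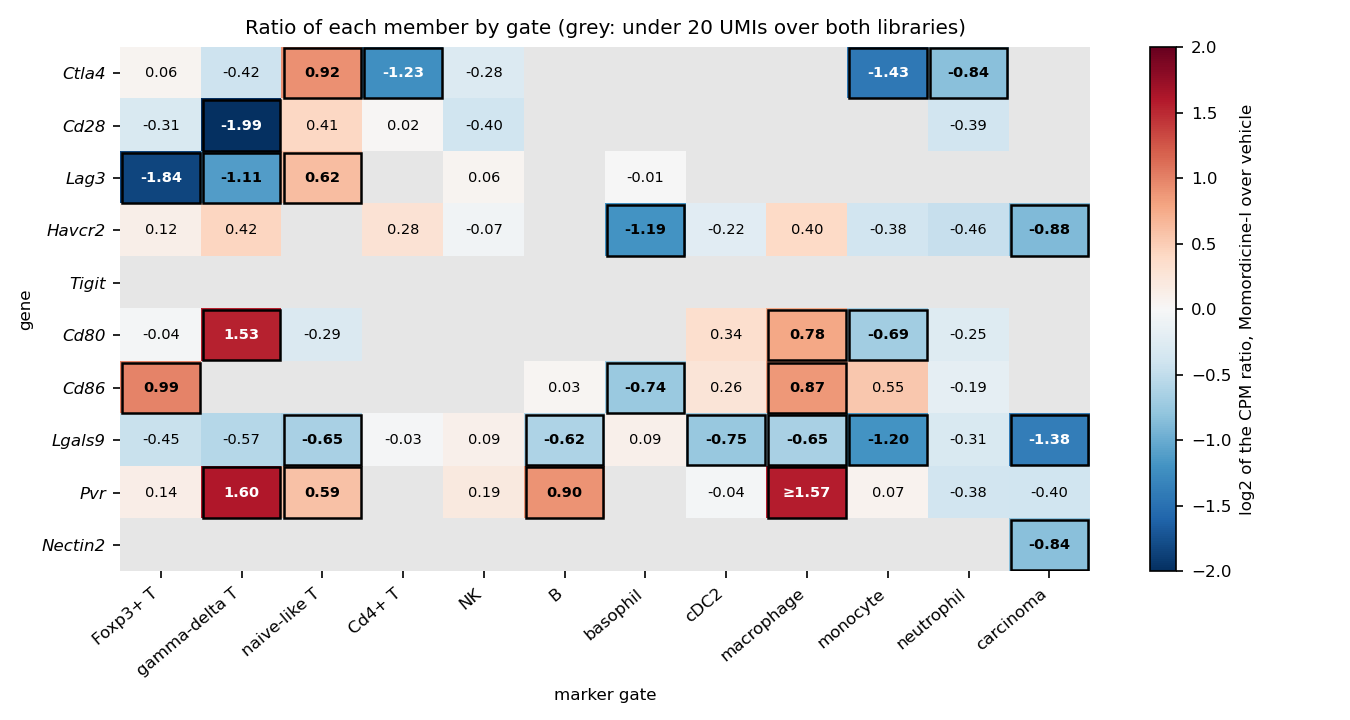
Log2 of the Momordicine-I to vehicle CPM ratio for each of the 10 genes (rows) in 12 marker gates (columns), with red higher and blue lower in the Momordicine-I library; boxes mark ratios past 1.5-fold and grey marks pairs under 20 UMIs. The Lgals9 row is below 0 in 10 of 12 gates, and the Cd28 value of -1.99 in gamma-delta T cells is the lowest of the map.

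Several receptors can be carried by the same cell. Counting Ctla4, Lag3, Havcr2 and Tigit, 25 of 51 Momordicine-I Foxp3+ T cells (49.0%, 34.8 to 63.4%) and 52 of 94 vehicle cells (55.3%, 44.7 to 65.6%) had UMIs of at least 2 of these 4. Thinned to 2000 UMIs the shares were 18.0% and 14.1%. NK cells, whose medians were 14830 and 17043 UMIs, had 48.1% in the Momordicine-I and 58.8% in the vehicle library, and 4.94% and 7.84% thinned. B cells had 0 of 87, which allows up to 3.45%, and 2 of 218 such cells. The intervals of the 2 libraries overlapped in each of these gates.

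Other genes of these pathways were read from 6 lists, whose measured members are counted at 1.5-fold. Of all genes measured in Foxp3+ T cells, 8.61% were higher and 12.9% lower at that fold. In Foxp3+ T cells the 10 Treg effector genes were 0 higher and 2 lower (median log2 ratio -0.13, against -0.02 for all genes). Ikzf2, the Helios gene, was at 1447 CPM in Momordicine-I and 1389 CPM in vehicle cells, and Il2ra, the high-affinity IL-2 receptor chain, at 1066 and 1256 CPM. The 2 lower genes were Itgae (81.7 against 138 CPM, ratio 0.592, 0.415 to 0.828), the CD103 integrin chain, and Ccr8, a chemokine receptor of tumour regulatory T cells. Ccr8 was at 10.9 against 25.6 CPM, from 6 and 30 UMIs, with an interval that spans 1 (0.145 to 1.04). Of 7 measured CD28 and B7 family genes Pdcd1, the PD-1 gene, was higher at 285 against 182 CPM (ratio 1.57, 1.27 to 1.94). Icosl (9.08 against 24.7 CPM, ratio 0.367, 0.111 to 0.959) and Btla (16.3 against 27.3 CPM) were lower. The interval of Btla spans 1 (0.251 to 1.28). Icos was at 641 and 624 CPM. The 15 genes of T cell receptor and CD28 signalling were 0 higher and 1 lower in this gate. The lower was Akt1, at 45.4 against 69.0 CPM, with an interval that spans 1 (0.402 to 1.04). Of 5 other ligands of LAG-3 and TIM-3, 3 were higher. Among these were the class II genes H2-Aa (202 against 134 CPM) and H2-Eb1 (196 against 115 CPM), of which 1 cell held 67.6% and 54.6% of the UMIs in the Momordicine-I library, and 1 cell 83.4% and 80.7% in the vehicle library. Of 10 genes of activated or exhausted T cells 2 were higher, Nr4a3 (180 against 110 CPM) and Tox2 (50.8 against 30.7 CPM), a nuclear receptor and an HMG-box factor. The interval of Nr4a3 leaves out 1 (1.24 to 2.14) and that of Tox2 spans it (0.974 to 2.79).

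Pdcd1 was higher in NK cells as well, at 169 CPM in the Momordicine-I and 56.3 CPM in the vehicle library (ratio 2.99, 2.23 to 4.08), beside the Lag3 ratio of 1.04. It was lower in Cd4+ T cells, at 249 against 461 CPM (ratio 0.539, 0.381 to 0.751). In that Cd4+ gate 5 of 8 measured genes of activated or exhausted T cells were lower, beside 17.8% of all genes, and 2 higher, beside 15.5%. The higher were Nr4a3 (132 against 60.9 CPM, ratio 2.17, 1.17 to 4.08) and Tox (74.1 against 43.5 CPM, ratio 1.70, 0.761 to 3.78). Among the lower were Irf4, Batf and Maf, transcription factors of activated T cells, at 15.9 against 125, 47.6 against 145 and 68.8 against 212 CPM. Il10, an inhibitory cytokine of the Treg effector list, had 1 against 51 UMIs, of which 1 vehicle cell held 62.7%. Gzmb of the same list was higher, at 29 against 3 UMIs. The MHC class II genes H2-Aa, H2-Ab1 and H2-Eb1, whose products LAG-3 binds, were in NK cells at 39.5 against 116, 39.5 against 160 and 25.4 against 117 CPM. A single vehicle cell held 78.3%, 69.8% and 75.9% of the vehicle UMIs of these genes. In monocytes, which carry class II, H2-Ab1 was at 1178 CPM in Momordicine-I and 1245 CPM in vehicle cells (ratio 0.946, 0.871 to 1.03). There 0 of 6 measured other ligands of LAG-3 and TIM-3 was called, beside 11.9% of all genes higher and 11.3% lower. The 9-gene nectin and CD226 family list had 5 members measured in NK cells. Of these 0 were higher, beside 9.41% of all genes, and 1 lower, beside 9.65%. The lower was Crtam, an activation-induced receptor (24.7 against 49.2 CPM). Cd226, the activating competitor of TIGIT, was at 59.2 and 67.3 CPM (ratio 0.880, 0.631 to 1.23).

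The receptors differed in which genes shared their pattern over the 24 gate and library values, by Pearson r of log2(CPM + 10) among 6201 genes. These values share their libraries and depth, and r is given as a description. Cysltr2 (0.965), Il2ra (0.959) and Sytl2 (0.955) were closest to Ctla4. Trbc2 (0.963), Lck (0.960) and Zap70 (0.944), the T cell receptor beta constant gene and 2 kinases of T cell receptor signalling, were closest to Cd28. Nkg7 (0.889), Cst7 (0.889) and Cables1 (0.869) were closest to Lag3, and Ehbp1l1 (0.896), Naip2 (0.853) and Map2k3 (0.840) to Havcr2. For Tigit the closest were Gatad2a (0.826), Rgs16 (0.818) and Wls (0.808), with a highest Tigit level of 8.52 CPM.

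**Figure D5:**
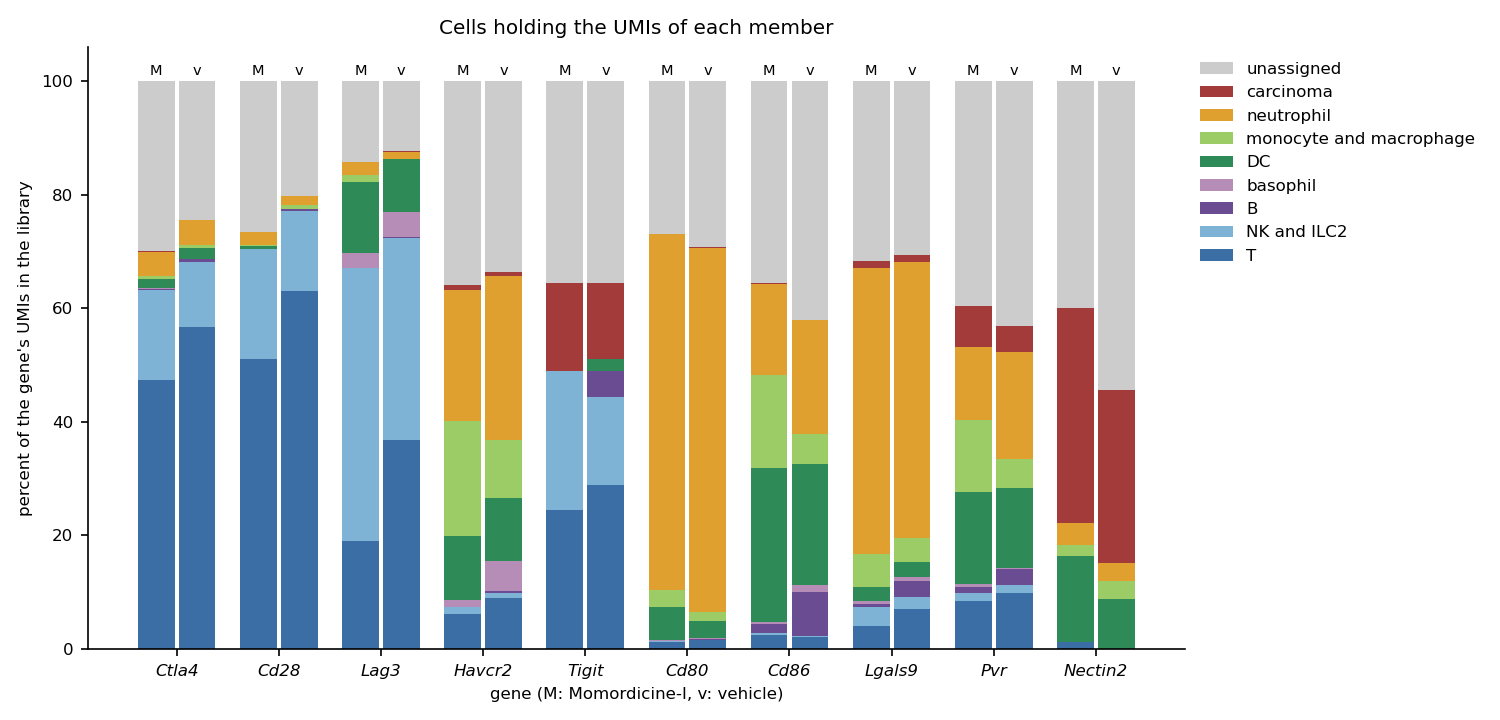
Share of each gene's UMIs held by groups of gates (percent of the gene's UMIs in the library), with the Momordicine-I bar (M) left of the vehicle bar (v). Neutrophils hold 62.6% and 64.2% of Cd80 and 50.4% and 48.7% of Lgals9, and cells in no gate hold 29.9% and 24.5% of Ctla4.

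The cells in no gate held a part of every gene. They had 29.9% of Ctla4 UMIs in the Momordicine-I and 24.5% in the vehicle library, 35.6% and 42.1% of Cd86, and 39.9% and 54.4% of Nectin2. NK cells held 14.8% and 8.86% of Ctla4, and Foxp3+ T cells 26.9% and 38.5%.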

How the data were processed

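Each of the 2 pools of tumour cells gave 1 library of the 10x Genomics 3' kit (version 3.1), as the labels' protocols state. The files deposited by the authors are matrices of unnormalized UMI counts. The submitters' processing notes name Cell Ranger 6.0.2 and the mm10 build. In all there were 41804810 UMIs in 4693 Momordicine-I and 33998491 UMIs in 3642 vehicle barcodes, of which 10 barcodes were shared, and 0 columns of other samples.

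Barcodes with under 200 genes (26 Momordicine-I, 25 vehicle) or over 10% mitochondrial UMIs (322 and 274) were removed with Python 3.11.15 and scipy 1.17.1. Cells of the other gates had under 0.5% neutrophil-marker UMIs. Neutrophils had at least 1% and passed the rule of no other lineage. Cells in no gate were not held to these limits. Neutrophil markers made up 2.49% of their UMIs in the Momordicine-I and 2.47% in the vehicle library. T cells needed 2 UMIs of Cd3d, Cd3e and Cd3g, and other lineages 2 to 5 UMIs of their markers. Foxp3, then gamma-delta, naive, Cd8 and Cd4 markers split T cells. Not every marker of the naive gate is reported here. These thresholds were set after the data were seen, and the genes and lists were chosen with earlier results of these data known. Doublets were kept, and removal by Scrublet rank is an alternative: its automatic threshold marked 1 and 2 cells, which is too few to have worked.

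Ratios have exact conditional binomial and levels exact Poisson 95% intervals, shares Clopper-Pearson intervals. Intervals were checked on simulated counts. Named genes are all 10 members, the 3 genes most like each receptor, up to 4 genes per list by UMIs, and up to 8 list genes in each direction in the gate where a receptor was highest. Symbols match GENCODE M21, and the promoter starts are those of RefSeq.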

Additional observations from a re-analysis of the deposited data

Results flagged for a closer look

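Ctla4, Cd80, Cd86 and Lag3 were past 1.5-fold in opposite directions in gates that share no cells, with 1 library per group, and these differences between gates were not tested. Ctla4 had Momordicine-I to vehicle ratios of 1.89 in naive-like T cells, 0.427 in Cd4+ T cells, 0.372 in monocytes and 0.558 in neutrophils. The levels in monocytes and neutrophils had intervals that overlapped those of B cells. Cd80 had ratios of 2.90 in gamma-delta T cells and 1.71 in macrophages but 0.620 in monocytes. Cd86 had ratios of 1.99 in Foxp3+ T cells and 1.83 in macrophages but 0.598 in basophils. Lag3 had ratios of 1.54 in naive-like T cells but 0.280 in Foxp3+ T cells and 0.463 in gamma-delta T cells. In gamma-delta T cells without an Il17a UMI, which held all Lag3 UMIs of that gate, the ratio was 0.738 (0.378 to 1.43).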

How the results depend on the processing

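No paired analysis was possible because each group has 1 library and no replicate numbers. Over 11 alternatives the pairs called ranged from 9 to 13 higher and 14 to 19 lower. Calls that turned in direction had these log2 ratios. With each cell's CPM given equal weight they were -0.10 for Cd80 in gamma-delta T cells and 0.55 for Lgals9 in carcinoma cells. With cells classed by most marker UMIs they were -0.91 for Cd80 and -0.46 for Cd86 in macrophages and 0.070 for Cd80 in monocytes. Thinning gave -0.71 for Cd86 in Foxp3+ T cells, -0.17 for Cd86 in all T cells, 0.36 for Lgals9 in conventional dendritic cells and -0.58 for Pvr in gamma-delta T cells. Removing doublets gave -0.84 for Cd86 in Foxp3+ T cells. A limit of 5% mitochondrial UMIs gave -0.16 for Lag3 in naive-like T cells and 0.81 for Nectin2 in carcinoma cells, and leaving out the highest cell gave 0.063 for Nectin2 in carcinoma cells. List members called numbered 76 higher and 71 lower at 20 UMIs. At 1 UMI they were 159 and 160, and at 50 UMIs 39 were lower, since the number of genes measured changes. These totals have no share of all genes beside them and are not a result about the lists. The cause of the other changes was not tested. Gates under about 50 cells rest on few cells per gene, and Tigit is limited by depth throughout.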

Other observations

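In Foxp3+ T cells of the Momordicine-I library Lgals3, a galectin that binds LAG-3 among other ligands, was at 320 CPM, against 211 CPM in vehicle cells (ratio 1.51, 1.24 to 1.84), and 1 cell held 37.5% of the Momordicine-I UMIs. Gzmb, the granzyme B gene, was at 995 against 1488 CPM (ratio 0.668, 0.606 to 0.736). In Cd4+ T cells Lgals3 was at 566 against 122 CPM (ratio 4.65, 3.22 to 6.81), and 1 Momordicine-I cell held 65.4% of those UMIs. In monocytes Cd274, the PD-L1 gene, was at 57.2 against 97.0 CPM (ratio 0.590, 0.427 to 0.823), while Nr4a1, an immediate early gene, was at 325 against 174 CPM (ratio 1.87, 1.52 to 2.30). Vsir, the VISTA gene, was at 298 and 296 CPM there.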
